A study of Mus musculus with 27 samples.

Results

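The nuclear genes for mitochondrial ribosomal proteins were taken as the entries of the expression table whose symbol is Mrpl (large subunit) or Mrps (small subunit) followed by a number and at most a letter. This gave 77 genes of 59489 entries (23508 of them with a symbol), 48 for the large and 29 for the small subunit. In 3 of them the authors' gene model joins the gene to a neighbour, and the entry is named for both: Slc5a3 // Mrps6, Mrps34 // Nme3 and Ccdc142 // Mrpl53. The values of these 3 entries cannot be assigned to the ribosomal protein gene alone. They were found from the symbol, so other entries can also hold more than 1 gene. The Mrps23 entry (chr11:88194106-88211506) is longer than its GENCODE M21 model (7120 nt) and overlaps Cuedc1 on the same strand. Whether its value includes RNA of Cuedc1 was not tested. The subunit was taken from the symbol alone. Counts by subunit therefore hold every Mrps gene as a small subunit gene. Among them are Mrps18a and Mrps36, although their proteins are placed elsewhere, as described below. Whether the proteins of other Mrps genes are also placed elsewhere was not checked.

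Mitochondria translate the few mRNAs of their own genome, all for subunits of the respiratory chain and the ATP synthase, on a ribosome separate from that of the cytosol. Its RNAs are encoded in mitochondrial DNA, but every one of its proteins is encoded in the nucleus, translated in the cytosol and imported. Neurons rely on oxidative phosphorylation for synaptic activity, and inherited loss of mitochondrial translation often affects the brain and muscle.

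Polyadenylated RNA was sequenced from wild type mouse primary cortical cells, isolated at embryonic day 16.5 and grown for 14 days, in 27 libraries that fall into 9 groups of 3. In 9 libraries the cells had 50 µM DRB for 2 h, which blocks elongation by RNA polymerase II, and were left unstimulated or had 20 µM bicuculline or 50 ng/mL BDNF for 1 h. In the other 18 libraries the cells had 1 µM triptolide for 3 h, which blocks initiation of transcription, without or with 20 µM bicuculline for 1 h, and RNA came from whole cells, from the cytosol or from the nucleus. Bicuculline blocks GABA-A receptors and raises network activity, and BDNF is the neurotrophin that activates TrkB. Every group had a transcription inhibitor, so the levels describe mRNA under inhibition and there is no group without one. The study concerned how different stimuli reshape neuronal RNA through retained introns. The deposited values are 1 FPKM per gene (fragments scaled to transcript length and to mapped fragments), so retained introns are not analysed here and the level of a gene includes its unspliced RNA. Libraries with the same number in different groups of an experiment share a culture code in the labels.

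The cultures held neurons and glia. Markers of all neurons were high in every library (Tubb3 between 250 and 887 FPKM, Snap25 between 253 and 578 FPKM), as was the astrocyte glutamate transporter Slc1a3 (210 to 329 FPKM), while the defining endothelial gene Cldn5 stayed at or below 0.00945 FPKM and the 6 vascular and mesenchymal markers at or below 1.44 FPKM. Of the 6 microglial markers, Tmem119 and P2ry12 stayed at or below 0.0829 FPKM and Cx3cr1 and Csf1r at or below 0.489 FPKM, but Aif1 ran from 0.856 to 6 FPKM and C1qa from 0.0876 to 4.34 FPKM. Depth, worked out from the steps between low values, was 83421740 to 147962648 fragments in the DRB libraries and 67589608 to 89456538 in the triptolide libraries. From that depth and GENCODE M21 transcript lengths, a value of a mitochondrial ribosomal protein gene was estimated to rest on a median of 1644 fragments. The estimates ran from 63 for Mrpl23 in a DRB library to 23899 for Mrpl3. They are rough, since the lengths used for the FPKM can differ. For Mrps26 the GENCODE transcript (4278 nt) is longer than the whole entry (chr2:130563738-130565393). All 77 genes passed the filter on low values, and 75 had at least 1 FPKM in all 27 libraries. In RNA from a mixed culture, a lower value can mean fewer cells of a type or less RNA per cell, and these cannot be told apart.

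The genes are short and compact. All 77 matched GENCODE M21, with a median of 4 introns (1 to 11), a mature transcript of 1288 nt and a protein of 192 amino acids, against 9 introns, 3102 nt and 475 amino acids as the medians of 11016 matched protein-coding entries with a tested value. RefSeq promoter windows (GRCm38.p6, from 250 bases before the start to 50 after it) were found for 68 of the 77. Short motifs named for factors that act on nuclear genes of mitochondria or on core promoters were searched on both strands. The exact palindromic letters of the NRF1 motif (nuclear respiratory factor 1, capitals in the first 3 windows shown) stood in 3 of 68 windows, or 4.41%, against 1.32% of 17492 windows of protein-coding genes of the same length. The ETS letters CCGGAAG, which GABP binds, stood in 24 windows (35.3% against 11.9%) and the YY1 letters AAGATGG in 13 (19.1% against 6.37%). The TATA box letters TATAAA stood in 4 windows (5.88% against 13.3%). The ETS and YY1 letters share AAG, so a run of both can count for each, and 35 windows held at least 1 of NRF1, ETS and YY1. A match is a run of letters and not a bound site. The windows also had a median of 21 CpG dinucleotides, against 13 over all windows.

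The windows of 6 genes are shown from up to 150 bases before the RefSeq start. The 3 that hold the NRF1 letters are Mrpl9, Mrpl32 and Mrpl39, whose proteins belong to the large subunit. Mrps18a, among the most abundant of the mRNAs, holds the ETS letters, and Mrpl44 (the lowest in unstimulated whole cells under triptolide) and Mrps5 (the highest in the nucleus relative to the cytosol among unmerged entries) hold none of the motifs in the bases shown. Capitals mark a motif, and lines run 5′ to 3′ on the strand of the gene. Windows end at the start, or earlier where more than 30 bases would lie inside the authors' gene model. Up to 30 of the bases shown can therefore lie inside that model, as do 20 in Mrpl9.
Mrpl9, chr3:94443186-94443335, plus strand: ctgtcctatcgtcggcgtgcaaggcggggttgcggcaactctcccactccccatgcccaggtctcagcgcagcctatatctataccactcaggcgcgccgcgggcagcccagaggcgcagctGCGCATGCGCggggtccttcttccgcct
Mrpl32, chr13:14613043-14613187, minus strand: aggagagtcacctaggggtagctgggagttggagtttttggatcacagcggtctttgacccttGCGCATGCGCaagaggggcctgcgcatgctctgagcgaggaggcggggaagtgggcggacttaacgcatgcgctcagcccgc
Mrpl39, chr16:84735273-84735394, minus strand: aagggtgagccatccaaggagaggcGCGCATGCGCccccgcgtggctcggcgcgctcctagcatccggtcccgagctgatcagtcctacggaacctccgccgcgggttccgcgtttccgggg
Mrps18a, chr17:46110854-46111003, plus strand: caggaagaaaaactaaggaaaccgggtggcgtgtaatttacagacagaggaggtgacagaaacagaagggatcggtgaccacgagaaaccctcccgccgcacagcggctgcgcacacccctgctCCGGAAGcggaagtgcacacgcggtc
Mrpl44, chr1:79775868-79776017, plus strand: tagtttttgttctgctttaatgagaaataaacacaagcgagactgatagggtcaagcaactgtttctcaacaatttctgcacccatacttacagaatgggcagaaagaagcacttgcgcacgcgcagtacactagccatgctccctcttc
Mrps5, chr2:127587276-127587425, plus strand: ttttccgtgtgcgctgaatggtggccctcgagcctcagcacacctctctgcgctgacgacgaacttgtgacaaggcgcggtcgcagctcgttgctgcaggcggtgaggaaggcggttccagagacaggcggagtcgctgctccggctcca
The NRF1 letters lie 19 to 28 bases before the start in Mrpl9, 78 to 87 in Mrpl32 and 116 to 125 in Mrpl39, and the ETS letters 20 to 26 bases before it in Mrps18a. The 24 genes with the ETS letters had a median of 13.1 FPKM in unstimulated whole cells under triptolide and the 44 without them a median of 10.3 FPKM, a difference given without a test.

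The mRNAs differed widely in level. In unstimulated whole cells under triptolide the median gene stood at 11.1 FPKM (quartiles 6.81 and 16.4), and large and small subunit genes had medians of 10.7 and 12.8 FPKM. Mrps21, a small protein of the small subunit, was highest with 44.9, 41.0 and 44.3 FPKM in the 3 libraries, a mean of 43.4 ± 2.10 FPKM (SD, n = 3). Mrps18a followed with 38.9 ± 3.42 FPKM, and its libraries (39.6, 42.0 and 35.2) overlap those of Mrps21. Despite its name, its protein sits in the large subunit, and it is a paralog of Mrps18b and Mrps18c. Mrpl42 (36.5 ± 2.69), Mrpl30 (36.2 ± 2.61), Mrpl28 (31.8 ± 2.15) and Mrps15 (30.3 ± 1.06 FPKM) came next. Each neighbour in this order overlaps the next over its libraries.

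At the low end stood Mrpl44, whose protein carries a ribonuclease III fold, with 1.45, 1.51 and 1.61 FPKM (1.52 ± 0.0827, n = 3), and Mrps10 with 1.87, 1.90 and 1.26 FPKM. These genes overlap each other and lie below the other lowest entries of a single gene, Mrpl19 (3.30 ± 0.0341 FPKM), Mrps25 (4.23 ± 0.223), Mrpl15 (4.49 ± 0.358) and Mrpl57 (4.54 ± 0.118 FPKM). Of these, Mrpl19 lies below the other 3, and Mrpl15 overlaps both Mrps25 and Mrpl57. The 3 paralogs that share the name Mrps18 differed, with Mrps18a at 38.9, Mrps18c at 19.6 ± 0.654 and Mrps18b at 15.5 ± 1.48 FPKM and no overlap among them. Across the genes level and mature transcript length had a Spearman correlation of −0.33 over 77 genes, a description only, since FPKM is itself divided by length. The order was nearly the same in the other triptolide groups (Spearman 0.983 to 0.994 with unstimulated whole cells) and less so in the DRB groups (0.897 to 0.902).

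As a group the mRNAs made up 984 to 1065 FPKM in unstimulated whole cells under triptolide and 1475 to 1482 FPKM in unstimulated cells under DRB. In the triptolide nucleus the sum was 940 to 949 FPKM, and in the cytosol 972 to 1062 FPKM. The DRB libraries lay above all triptolide libraries, and within triptolide the nuclear libraries lay below the others in summed FPKM. As a share of FPKM outside the mitochondrial chromosome, the unstimulated nucleus (0.274 to 0.282%) overlapped the unstimulated cytosol (0.272 to 0.292%). The DRB bicuculline library numbered 3 stood apart at 1697 FPKM, against 1468 and 1411 in the other libraries of its group. The median coefficient of variation over the genes was 10.6% in that group, against 5.03% in unstimulated DRB cells.

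**Figure D1:**
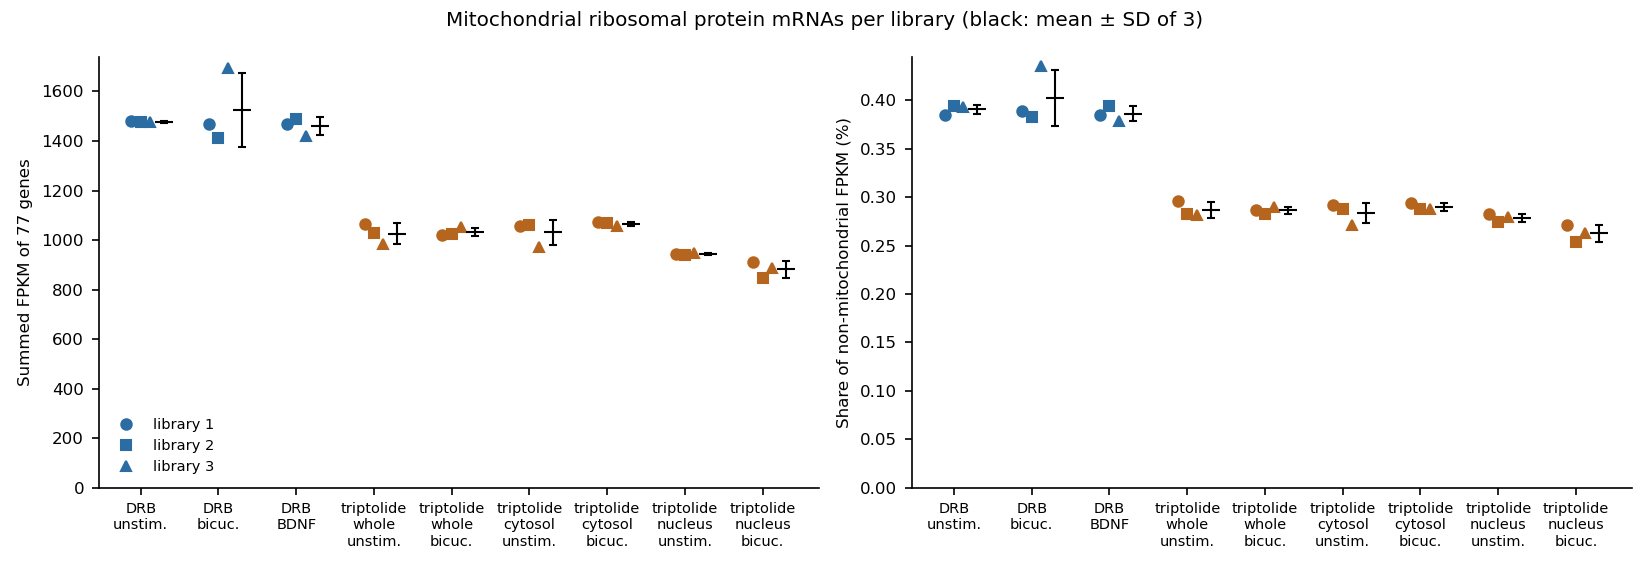
Summed FPKM of the 77 genes (left) and their share of all FPKM outside the mitochondrial chromosome in percent (right), for each of the 27 libraries by group. Symbols stand for library numbers, blue for DRB and brown for triptolide, and the black bar is the mean ± SD of 3. DRB libraries lie at 1411 to 1697 FPKM, and triptolide libraries at 846 to 1071 FPKM, with the nucleus lowest in summed FPKM. As a share, the unstimulated nucleus overlaps the unstimulated cytosol.

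The largest set of differences within an experiment was that between nucleus and cytosol, where most genes that differed were lower in the nucleus. In unstimulated cells 37 of the 77 genes were lower in the nucleus and 9 were higher (limma, Benjamini-Hochberg adjusted p under 0.05 over 14205 entries). Over all entries tested, 28% were lower and 39% higher, and the median difference was 0.06, against −0.17 for these genes, as nucleus minus cytosol on the log2(FPKM + 0.5) scale. That scale understates the change of low genes. By symbol, 28 of 48 large subunit genes were lower and 6 higher, and 9 of 29 small subunit genes were lower and 3 higher. The 9 include Mrps36, whose protein is now placed in another complex. With the culture of each library as a block these counts were 30 lower and 6 higher for the large subunit and 14 lower and 5 higher for the small subunit. FPKM is a share of the RNA of each fraction, so a lower value means less relative to the other RNA of the nucleus and not a number of molecules. The nuclear RNA Meg3, a check of the fractions, was 3.33 ± 0.25 (SE) higher in the nucleus on that log2 scale. RNA of the mitochondrial chromosome was not depleted there. It made up 10.4 to 12.5% of FPKM in the unstimulated nucleus and 9.52 to 12.3% in the unstimulated cytosol. How much RNA from outside the nucleus the nuclear fraction held was not tested.

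The scaling bears on these counts. With median-ratio scaling 51 genes were lower and 6 higher, where 34.6% of all entries were lower and 35.7% higher. With quantile normalization 49 were lower and 3 higher (Mrps5, Mrpl24 and the Mrpl53 entry), where 41.1% of all entries were lower and 27.8% higher. The median of all entries moved from 0.06 to −0.02 and −0.12 under these scalings, and that of the 77 genes from −0.17 to −0.26 and −0.28. With the culture as a block 44 genes were lower and 11 higher, where 33.1% and 42.8% of all entries were.

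Markers of cell types differed between the fractions too. The 5 markers of all neurons summed to 1223 to 1311 FPKM in the nucleus and 1735 to 1812 FPKM in the cytosol, with 3 of 5 lower in the nucleus and 1 higher. The inhibitory neuron markers (4 of 5 at 1 FPKM or more) summed to 104 to 130 FPKM in the nucleus and 237 to 300 FPKM in the cytosol. The 6 astrocyte markers summed to 591 to 682 FPKM in the nucleus and 490 to 583 FPKM in the cytosol, with 3 of 6 higher in the nucleus. Their part in the differences below was not tested.

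The 6 genes farthest toward the cytosol belong to the large subunit. Mrpl44 had 0.973, 0.983 and 1.44 FPKM in the nucleus and 1.99, 1.94 and 1.85 FPKM in the cytosol, a log2 difference of −0.58 ± 0.11 (SE; limma, adjusted p = 0.000142). All nuclear libraries lay below all cytosolic ones. Its entry lies at chr1:79776018-79781445 on the plus strand of mm10, with 3 introns. Mrpl45, whose protein tethers the ribosome to the inner membrane, had 6.93, 7.11 and 7.06 FPKM in the nucleus and 9.31, 10.6 and 10.1 FPKM in the cytosol (−0.48 ± 0.07). The nuclear values lay close together, well below the cytosolic ones. Mrpl46 (−0.46), Mrpl47 (−0.42), Mrpl40 (−0.41) and Mrpl43 (−0.41) followed, with no overlap of nucleus and cytosol in any of them, and all 6 were also lower under each alternative processing tried. Genes on the opposite strand overlap Mrpl44 (Wdfy1), Mrpl47 (Actl6a), Mrpl40 (Gm28539), Mrpl43 (Twnk) and Mrpl18 (Tcp1) in the GENCODE models, so their values depend on strand being used in counting, which the sources used here do not give.

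Of the genes chosen by role, those of the large subunit stalk were lower in the nucleus. Mrpl12, a stalk protein that also binds the mitochondrial RNA polymerase, had 18.6, 17.3 and 17.9 FPKM in the nucleus and 21.6, 22.2 and 20.1 FPKM in the cytosol (−0.24 ± 0.07, adjusted p = 0.00672 in limma). Mrpl11, at the base of the stalk, differed by −0.26 ± 0.06. Mrpl18, which belongs to the family that binds ribosomal 5S RNA in other ribosomes, differed by −0.40 ± 0.08 (10.4 ± 0.482 against 13.9 ± 0.873 FPKM), and Mrpl3, near the peptidyl transferase centre, by −0.17 ± 0.06. The call of Mrpl3 was lost when nuclear or cytosolic library 1 was left out (highest adjusted p 0.0779 in limma). Of the Mrps genes, Mrps18c (−0.22 ± 0.08), Mrps36 (−0.27 ± 0.08) and the Mrps34 // Nme3 entry (−0.28 ± 0.09) were lower in the nucleus, and the call of Mrps18c was lost in 4 of 6 fits that left out a library (adjusted p up to 0.116 in limma). Mrps12 of the decoding centre (−0.02 ± 0.09, adjusted p = 0.88), Mrps22 (−0.09 ± 0.08), Mrps27, a pentatricopeptide repeat protein (−0.11 ± 0.08), Mrps18b (−0.12 ± 0.09) and Mrps18a (−0.15 ± 0.07, adjusted p = 0.0541) did not pass in limma.

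Against this direction, 9 genes were higher in the nucleus. Mrps5, whose protein helps set the accuracy of decoding at the entry of the mRNA, had 21.2, 20.5 and 21.9 FPKM in the nucleus, 15.7, 17.6 and 15.9 in whole cells and 12.4, 12.1 and 10.7 in the cytosol. The 3 kinds of RNA do not overlap, and the nucleus exceeded the cytosol by 0.83 ± 0.09 (limma, adjusted p = 9.35e-07), or 1.77-fold on the log2(FPKM + 0.5) scale. Its entry spans chr2:127587410-127604859 on the plus strand (mm10). The Ccdc142 // Mrpl53 entry (chr6:83101516-83109937, plus strand) had 9.22, 8.48 and 9.94 FPKM in the nucleus and 4.13, 3.67 and 3.88 FPKM in the cytosol, a log2 difference of 1.14 ± 0.09, the largest of all, but which of its genes carries it cannot be told apart. Mrpl1 (0.31 ± 0.10), Mrpl33 (0.30 ± 0.08), Mrpl41 (0.29 ± 0.08), Mrps25 (0.25 ± 0.07), Mrpl24 (0.21 ± 0.07), Mrps24 (0.19 ± 0.07) and Mrpl17 (0.17 ± 0.06) differed less. Genes on the opposite strand overlap Mrpl33 (Rbks), Mrps25 (Nr2c2) and Mrpl24 (Rrnad1), so their values also depend on strand being used in counting. The Mrpl33 entry spans chr5:31596934-31664364, while its GENCODE model spans 8706 nt, and what the rest of the entry adds was not tested. The calls of Mrps24 (4 of 6 fits), Mrpl24 and Mrpl17 (2 of 6 each) were lost when a library was left out, with adjusted p up to 0.113 in limma. Mrpl41 is also known for a role in arrest and death of cells through p53 and Bcl2. The direction of Mrpl1, Mrpl33, Mrps25 and Mrpl17 turned under quantile normalization (to −0.01, −0.00, −0.12 and −0.13), while Mrps5, Mrpl24 and the Mrpl53 entry were still called higher.

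**Figure D2:**
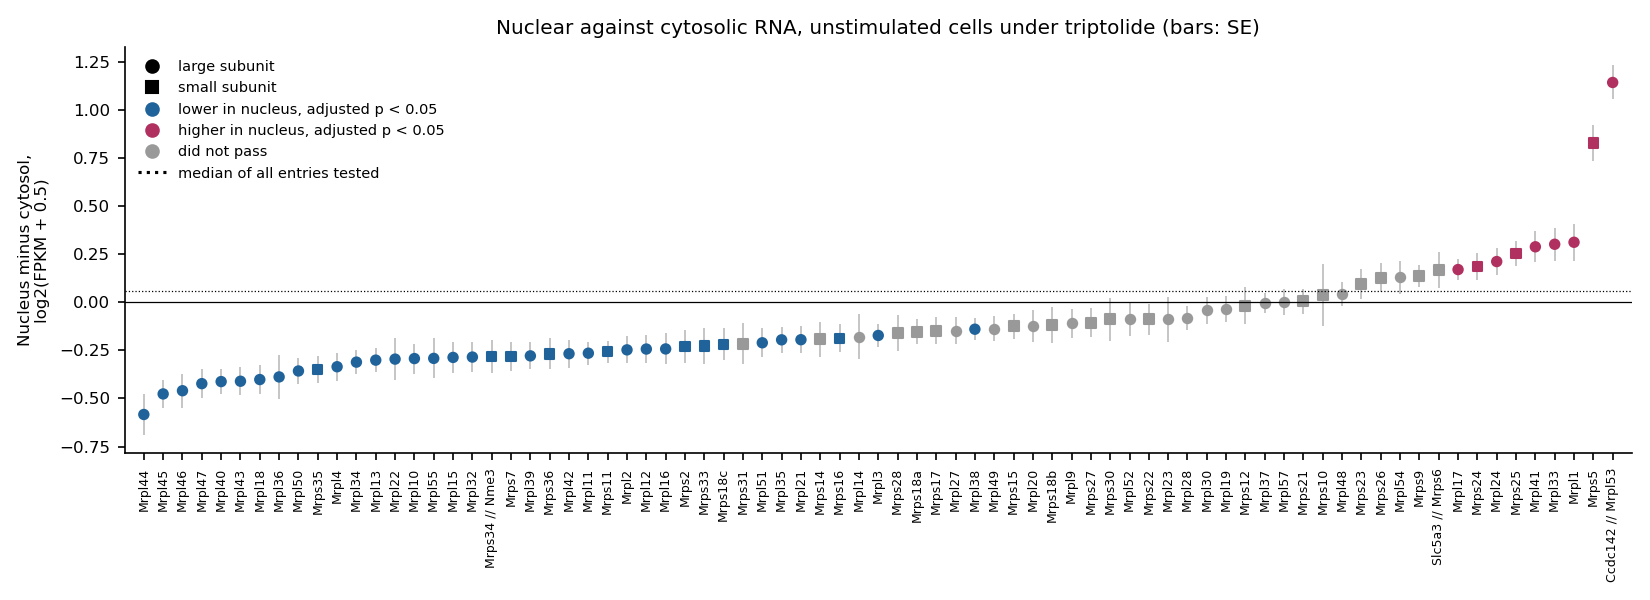
Difference between nucleus and cytosol of unstimulated cells under triptolide for each of the 77 genes, in order, as log2(FPKM + 0.5), with the SE of the limma fit. Circles are large and squares small subunit genes by symbol. Blue and red are lower and higher in the nucleus at an adjusted p under 0.05. Grey did not pass, and the dotted line is the median of all entries (0.06). The values run from −0.58 (Mrpl44) to 1.14 (Ccdc142 // Mrpl53).

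The number of introns did not follow this order (Spearman 0.03 over 77 genes), nor did mature length (−0.03) or total intron length (0.04). These correlations are descriptions over genes that share libraries. Mrps5 has 11 introns, the most among the 77 genes, while Mrpl41, also higher in the nucleus, has 1. Mean values of whole cells lay between those of nucleus and cytosol for 61 of 77 genes, above both for 16 and below both for 0.

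With bicuculline the same comparison gave 57 genes lower in the nucleus and 4 higher, with a median of −0.27. Over all entries 31.9% were lower and 31.3% higher, and the median was −0.04. Of the 37 genes lower in unstimulated cells 36, or 97.3%, were also lower with bicuculline, which is 63.2% of the 57, and all 4 genes higher with bicuculline (Mrpl53 entry, Mrps5, Mrpl41 and Mrps25) were among the 9. The difference was largest for Mrpl18 (9.55 ± 0.581 FPKM in the nucleus against 15.4 ± 0.651 in the cytosol; −0.66 ± 0.07), followed by Mrpl42 (−0.61), Mrpl50 (−0.54), Mrpl36 (−0.51), Mrpl47 (−0.50) and Mrpl46 (−0.49). Mrps5 stayed higher in the nucleus at 18.9, 25.4 and 19.0 FPKM against 13.3, 12.7 and 12.8 in the cytosol (0.67 ± 0.09). Its nuclear library 2 lies above the other libraries with bicuculline, and none of the 3 overlaps the cytosol. The calls of Mrpl41 (0.21 ± 0.08) and Mrps25 (0.16 ± 0.07) were lost in 4 of 6 fits that left out a library, and Mrps25 turned to −0.08 under quantile normalization.

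**Figure D3:**
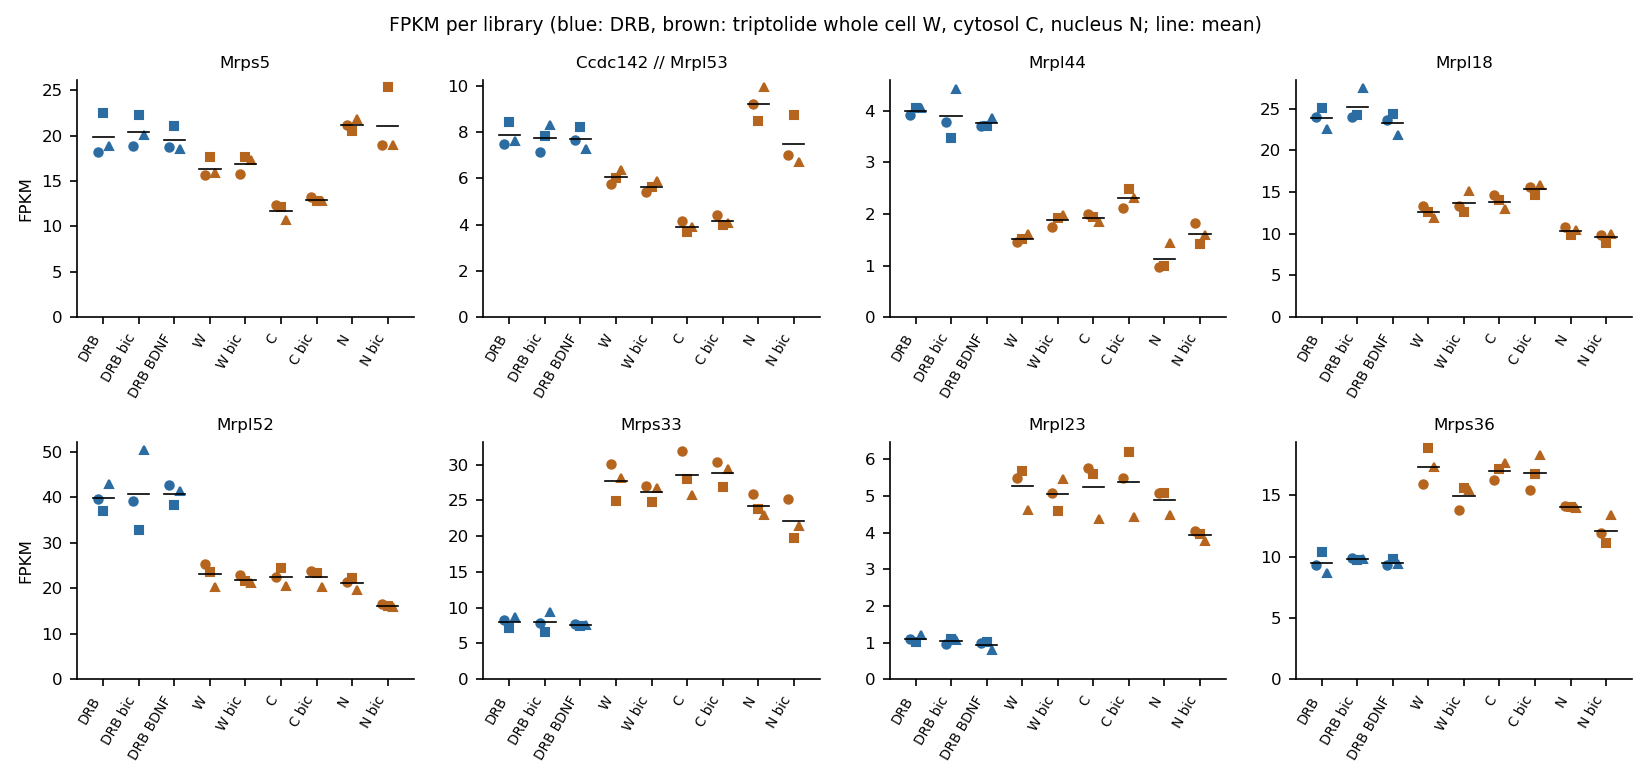
FPKM in each of the 27 libraries for 8 genes, by group. Blue is DRB, brown is triptolide (W whole cell, C cytosol, N nucleus; bic with bicuculline), symbols are library numbers and lines group means. Mrps5 and the Ccdc142 // Mrpl53 entry are higher in nucleus than cytosol, Mrpl18 and Mrpl44 are lower, and Mrps33, Mrpl23 and Mrps36 are lower in all 9 DRB libraries than in all 18 triptolide libraries.

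Whether bicuculline moved the balance between nucleus and cytosol was tested as the difference of the responses. By this test 0 of 77 genes changed (limma; 0.556% of all entries did), with 0 higher and 10 lower at an unadjusted p under 0.05 (3.06% and 13.3% of all entries), and the smallest adjusted p was 0.11. The median shift was −0.12 with 68 of 77 genes below 0, beside a median of −0.11 over all entries. It was −0.03 for both with median-ratio scaling and −0.01 for both with quantile normalization. With the culture as a block 3 genes passed (9.76% of all entries), Mrpl52 (−0.37), Mrpl30 (−0.36) and Mrpl42 (−0.35). Without nuclear bicuculline library 2, only the Ccdc142 // Mrpl53 entry passed (−0.48).

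Bicuculline changed few of these genes under triptolide. The response genes Fos, Npas4, Arc and Egr1 were also low there. In whole cells they summed to 11.5 to 18.9 FPKM with bicuculline and 7.19 to 11.3 FPKM unstimulated. Under DRB their sums were 369 to 447 FPKM with bicuculline and 37.5 to 46.7 FPKM unstimulated. In the nucleus 4 of 77 fell and 0 rose (limma, adjusted p under 0.05), where 0.824% of all entries fell and 0.986% rose. Of the 4, Mrps21, Mrpl42 and Mrpl30 are among the 6 highest named above, and Mrpl52 (chr14:54426908-54429753, plus strand, mm10) has the shortest mature transcript of the 77, 418 nt. Mrpl52 of the large subunit had 21.4, 22.4 and 19.6 FPKM unstimulated and 16.6, 16.0 and 15.8 FPKM with bicuculline, a log2 change of −0.38 ± 0.09 (adjusted p = 0.0368). Mrpl42 went from 31.4 ± 0.948 to 24.9 ± 0.698 FPKM (−0.33 ± 0.07, adjusted p = 0.0345 in limma). Mrpl30 went from 33.1 ± 0.788 to 26.6 ± 1.93 FPKM (−0.32 ± 0.07, adjusted p = 0.0326 in limma), and Mrps21 from 42.2 ± 2.23 to 34.7 ± 2.91 FPKM (−0.28 ± 0.07, adjusted p = 0.0417 in limma). In each of the 4 all bicuculline libraries lay below all unstimulated ones, as in 16 of the 77 genes and 8.26% of all entries. These calls are near the threshold. Leaving out any 1 of the 6 nuclear libraries ended those of Mrpl52, Mrpl42 and Mrpl30, and that of Mrps21 in 5 of 6 cases. With only the compared groups in the fit 0 passed. With the culture as a block 7 fell (the Mrpl53 entry, Mrps24 and Mrps36 in addition) and Mrpl44 rose by 0.38, where 5.39% of all entries fell and 7.72% rose. In the same comparison 1 of 6 subunits with other names fell, Chchd1 (−0.34 ± 0.07), as did 9 of 83 cytosolic ribosomal protein genes and 8 of 80 genes of oxidative phosphorylation, and none of these lists had a gene that rose. In the fit with the culture as a block 58 cytosolic ribosomal protein genes and 25 genes of oxidative phosphorylation fell. Markers of cell types also moved in the nucleus. The 5 markers of all neurons summed to 1290 to 1465 FPKM with bicuculline and 1223 to 1311 FPKM unstimulated, with all 5 above 0 and 1 called higher, and the 6 of excitatory neurons to 215 to 295 and 220 to 246 FPKM, with all 6 above 0 and 0 called. The 5 markers of inhibitory neurons summed to 127 to 160 FPKM with bicuculline and 104 to 130 FPKM unstimulated, with 3 of the 4 tested above 0 and 0 called. The 6 astrocyte markers summed to 526 to 599 FPKM with bicuculline and 591 to 682 FPKM unstimulated, with all 6 below 0 and 0 called. Their part in the fall of the 4 genes was not tested.

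In the cytosol Mrpl52 had 22.6, 24.5 and 20.5 FPKM unstimulated and 23.8, 23.3 and 20.2 with bicuculline, and the groups overlap. No gene of the 77 passed there (limma; 3.27% of all entries did), with 6 higher and 0 lower at an unadjusted p under 0.05 (18.5% and 1.01% of all entries). The median was 0.05 beside 0.08 over all entries, and −0.05 under both median-ratio scaling and quantile normalization, so its direction depends on the scaling. With the culture as a block Mrpl1 passed (0.29 ± 0.10 before blocking, 4.2 ± 0.207 FPKM unstimulated against 5.27 ± 0.694 with bicuculline), where 15.3% of all entries did.

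In whole cells under triptolide 0 of 77 passed (limma; 0.0352% of all entries), with 5 higher and 1 lower at an unadjusted p under 0.05 (8.88% and 2.14% of all entries). The median was 0.02, beside 0.03 for all entries, and −0.03 under quantile normalization. Mrps31 had the largest difference, 5.13 ± 0.208 FPKM unstimulated against 6.70 ± 0.872 with bicuculline (0.35 ± 0.11, adjusted p = 0.203 in limma), with no overlap, and passed with the culture as a block (adjusted p = 0.0225 in limma), as 4.23% of all entries did.

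Under DRB no gene of the set responded to either stimulus by the test. With bicuculline 0 of 77 passed (limma; 0.308% of all entries, all of them higher), and with BDNF 0 of 77 passed (0.638%). At an unadjusted p under 0.05 bicuculline gave 1 higher gene and 0 lower (1.79% and 0.21% of all entries), and BDNF 0 in either direction (3.34% higher and 0.128% lower). The gene was Mrps22, with 13.2, 14.0 and 13.3 FPKM unstimulated and 15.1, 15 and 16.2 with bicuculline (0.19 ± 0.06). Its groups do not overlap, as for 1 other gene of the set, Mrps35 (for all entries, 3.99% were higher without overlap). With BDNF 6 genes were lower without overlap, where 1.6% of all entries were. The stimuli had acted in these libraries, since Fos rose by 3.64 ± 0.24 with bicuculline and by 3.95 ± 0.24 with BDNF on the log2(FPKM + 0.5) scale.

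The precision limits what these tests could miss. For all 77 genes the 95% interval of the change lay within ±0.5 on the log2 scale, for bicuculline and for BDNF, and its median half-width was 0.20. The changes ran from −0.06 (Mrps28) to 0.19 (Mrpl47) with bicuculline and from −0.15 (Mrpl23) to 0.13 (Mrpl1) with BDNF. The medians were 0.04 and −0.02, beside 0.00 for all entries in both. The first rests on the DRB bicuculline library numbered 3, since without it the median was −0.03, and the second became 0.00 without the BDNF library numbered 3. Between BDNF and bicuculline 0 of 77 passed (limma; 0.128% of all entries), with 0 in either direction at an unadjusted p under 0.05 (2.03% higher and 0.571% lower over all entries). There 70 of 77 genes were lower with BDNF, with a median of −0.05, which became 0.02 without the DRB bicuculline library numbered 3. With the culture as a block these 3 comparisons gave 0 of 77 as well, where 0.571%, 1.49% and 0.54% of all entries passed.

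**Figure D4:**
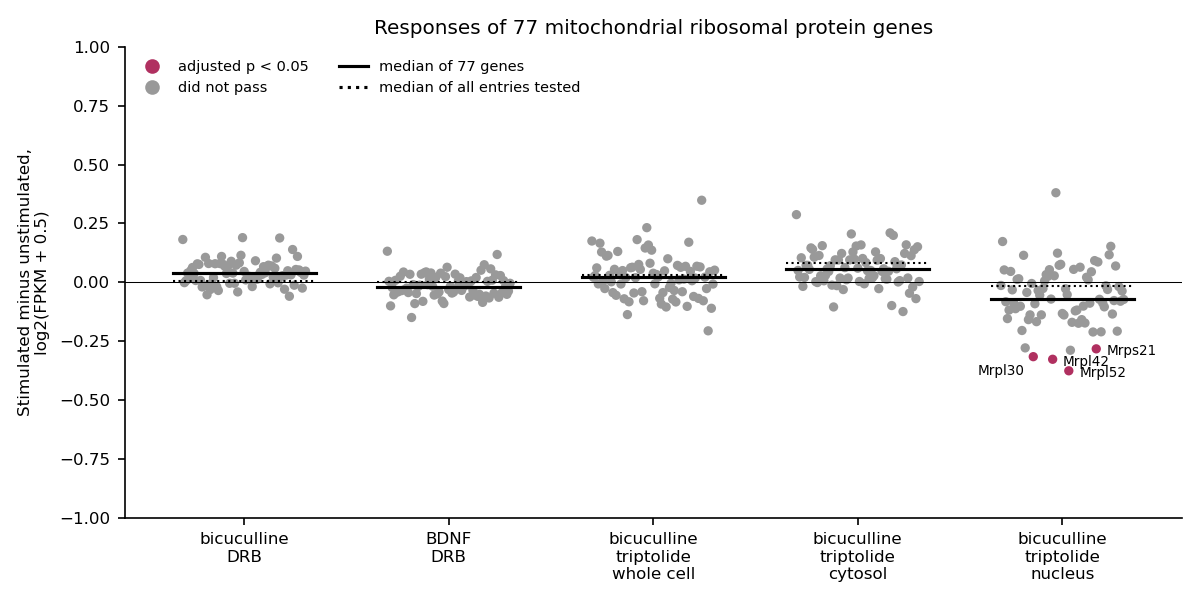
Change with bicuculline or BDNF of each of the 77 genes in 5 comparisons, as log2(FPKM + 0.5). Red points passed at an adjusted p under 0.05 and grey points did not, solid lines are the medians of the 77 genes and dotted lines those of all entries tested. The 4 genes that passed are in the nucleus under triptolide, between −0.28 and −0.38.

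Levels differed most between the experiments. In unstimulated whole cells 67 of 77 genes were higher under DRB than under triptolide and 3 were lower (limma, adjusted p under 0.05 over 13930 entries), where 48.4% of all entries were higher and 15.5% lower. The inhibitor, its duration and the cultures differ together and cannot be told apart. The median was 0.56, beside 0.26 for all entries. With median-ratio scaling, which sets the median of all entries to −0.00, 47 were higher and 4 lower (Mrps21 in addition, which was chosen here after its value was seen), with a median of 0.28, and 28.2% of all entries were higher and 28.7% lower. With quantile normalization 53 were higher and 3 lower, with a median of 0.31, where 36.1% of all entries were higher and 24.1% lower.

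Of the 6 genes farthest toward DRB, 5 belong to the large subunit. Mrpl44 had 3.91, 4.05 and 4.05 FPKM under DRB and 1.45, 1.51 and 1.61 under triptolide, a log2 difference of 1.15 ± 0.09 (limma, adjusted p = 1.19e-07). Mrpl14, which forms a bridge between the subunits, had 22 ± 1.88 against 10.5 ± 0.487 FPKM (1.03 ± 0.09), and Mrpl2, near the peptidyl transferase centre, 19.7 ± 1.69 against 9.52 ± 0.964 FPKM (1.01 ± 0.09). Mrpl43 (0.97), Mrps26 (0.90) and Mrpl18 (0.89) followed. In these genes no DRB library overlaps a triptolide library of the groups compared.

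Of the genes chosen by role, Mrpl12 (0.84 ± 0.08), Mrps12 (0.78 ± 0.11), Mrpl3 (0.66 ± 0.05), Mrpl11 (0.65 ± 0.07) and Mrps22 (0.61 ± 0.06) were higher under DRB with each alternative tried, as was the Mrps34 // Nme3 entry (0.56 ± 0.09). The paralogs Mrps18c (0.50 ± 0.08), Mrps18b (0.47 ± 0.07) and Mrps18a (0.38 ± 0.08) were also higher, as were Mrpl41 (0.42 ± 0.08) and Mrps27 (0.36 ± 0.08). The calls of these 5 were lost under 1 or 2 of the 15 alternatives, with adjusted p up to 0.438 for Mrps18a in limma. The 7 genes that did not pass include the abundant Mrps21 (45.3 ± 2.10 against 43.4 ± 2.10 FPKM) and Mrpl30 (40.9 ± 0.811 against 36.2 ± 2.61 FPKM).

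The 3 genes that went against the direction did so by larger amounts than most others. Mrpl23, a protein near the exit of the peptide tunnel, had 1.09, 1.01 and 1.20 FPKM under DRB and 5.50, 5.68 and 4.63 FPKM under triptolide, a log2 difference of −1.85 ± 0.10 (limma, adjusted p = 6.72e-09). Mrps33 had 8.24, 7.10 and 8.68 FPKM under DRB and 30.1, 24.9 and 28.1 FPKM under triptolide (−1.73 ± 0.11). Mrps36, whose protein is now placed in the oxoglutarate dehydrogenase complex, had 9.30, 10.4 and 8.69 FPKM under DRB and 15.9, 18.8 and 17.3 FPKM under triptolide (−0.84 ± 0.08). The groups are far apart in all 3. The entries lie on different chromosomes of mm10, Mrpl23 at chr7:142533117-142540743 (plus strand), Mrps33 at chr6:39801810-39810936 (minus strand) and Mrps36 at chr13:100735940-100744659 (minus strand). The separation covered every library, stimulated or not: the 9 DRB libraries reached at most 1.20 FPKM for Mrpl23, 9.44 for Mrps33 and 10.4 for Mrps36, and the 18 triptolide libraries at least 3.78, 19.8 and 11.1 FPKM. Each call held under every alternative tried. GENCODE M21 names 3 pseudogenes for Mrps36, 1 for Mrpl23 and 0 for Mrps33, and how reads that fit several places were counted is not given in the sources used here. Whether the counting differed between the experiments was not tested.

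**Figure D5:**
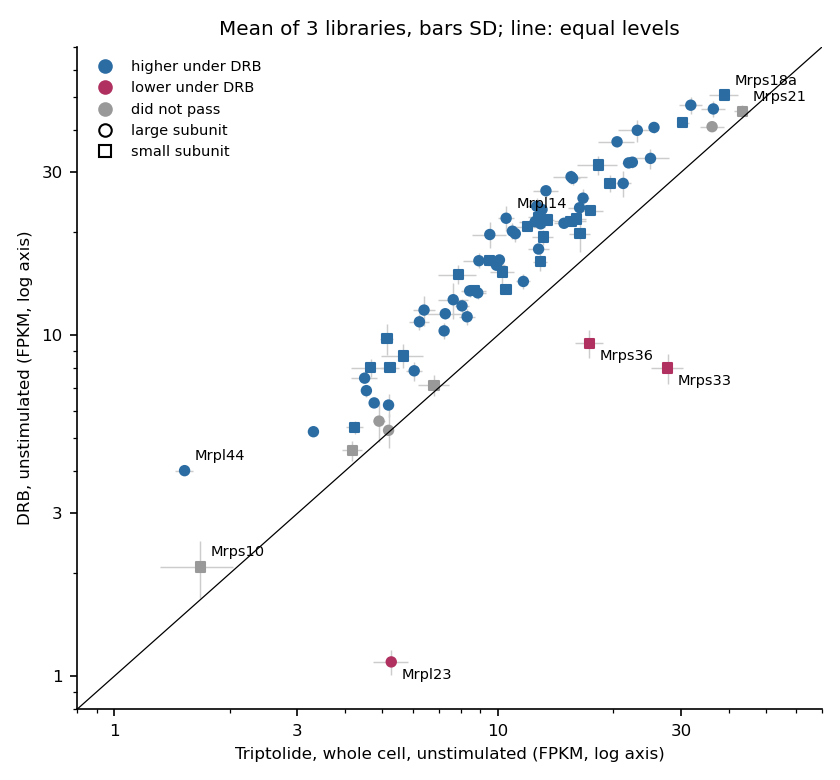
Mean FPKM of each of the 77 genes in unstimulated cells under DRB (vertical, log axis) against unstimulated whole cells under triptolide (horizontal, log axis), each the mean of 3 libraries with its SD. Blue is higher and red lower under DRB at an adjusted p under 0.05, grey did not pass, and the line marks equal levels. Most genes lie above the line, and Mrps33, Mrpl23 and Mrps36 lie far below it.

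Other features of the libraries moved with the experiment. RNA of the mitochondrial chromosome made up 5.06 to 5.74% of FPKM in unstimulated DRB cells and 9.20 to 12.5% in unstimulated whole cells under triptolide. The 6 markers of the oligodendrocyte lineage, 5 of them at 1 FPKM or more in both, summed to 170 to 222 FPKM under DRB and 70.4 to 85.7 FPKM under triptolide, with Mbp at 27 against 4.40 and Olig2 at 21.5 against 1.77 FPKM. The 5 markers of all neurons summed to 1965 to 2088 FPKM under DRB and 1558 to 1615 FPKM under triptolide. Of these, Syt1 went the other way (432 against 486 FPKM) and the rest were higher under DRB. The 6 markers of excitatory neurons summed to 230 to 290 and 274 to 297 FPKM. Among them Slc17a7 was lower under DRB (166 against 240 FPKM) and the rest were higher. The inhibitory neuron markers summed to 225 to 266 and 186 to 222 FPKM, and the 6 astrocyte markers to 479 to 588 and 535 to 636 FPKM. The 6 microglial markers summed to at most 5.64 FPKM in these groups, with Tmem119 and P2ry12 near 0, Aif1 at 4.23 under DRB and 1.82 under triptolide, and C1qa at 0.474 and 1.62 FPKM. The part of these shifts in the levels of mitochondrial ribosomal protein genes was not tested. The response to bicuculline itself gave a difference between DRB and whole cells under triptolide for 0 of 77 genes (limma, adjusted p under 0.05; 0.136% of all entries) and 1 gene in each direction at an unadjusted p under 0.05 (0.955% higher and 1.95% lower over all entries). With the culture as a block it was 0 as well (0.287% of all entries).

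The rest of the mitochondrial translation machinery was measured in the same libraries. The counts for the nucleus of unstimulated cells stand beside 39% of all entries higher and 28% lower. Subunits of the same ribosome that carry other names, such as the release factor Ict1 and Gadd45gip1, were lower in the nucleus of unstimulated cells for 2 of 6 genes (Ict1 −0.28 ± 0.07, Gadd45gip1 −0.27 ± 0.09) and higher for 0. Mitochondrial aminoacyl-tRNA synthetases, which charge the tRNAs, were higher in the nucleus for 8 of 16 and lower for 1 (Yars2, −0.18), led by Hars2 (7.74 ± 0.582 against 3.65 ± 0.346 FPKM; 0.99 ± 0.11), Cars2 (0.90) and Tars2 (0.80). Factors of mitoribosome assembly and rRNA modification were higher for 8 of 15, led by Mterf3 (0.99 ± 0.11), and lower for 2, Eral1 and Ngrn (both −0.32). Translation factors split, with 6 of 16 higher in the nucleus, led by Guf1 (1.79 ± 0.14) and Gfm2 (1.33 ± 0.10), and 8 lower, among them Mtif3 (−0.49) and the elongation factor Tufm (−0.42). The regulator Nrf1 was higher in the nucleus (0.94 ± 0.10) and Tfam, the packaging factor of mitochondrial DNA, lower (−0.28 ± 0.08). No test compared these lists with the ribosomal protein genes.

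Between the experiments, most tested genes of the first 5 lists were higher under DRB, where 48.4% of all entries were. The calls higher under DRB were 4 of 6 for the other subunits, 14 of 16 for translation factors, 13 of 16 for aminoacyl-tRNA synthetases, 17 of 18 for assembly factors and 7 of 9 for mitochondrial transcription and RNA stability, with 0 lower in each. The largest were Tfb2m, a transcription factor of mitochondria (11 ± 0.616 against 1.5 ± 0.189 FPKM; 2.53 ± 0.08), and the assembly GTPase Gtpbp10 (2.05 ± 0.16). Nuclear-encoded genes of oxidative phosphorylation were higher for 43 of 80 and lower for 8, with a median of 0.23, where 15.5% of all entries were lower and the median was 0.26, and cytosolic ribosomal protein genes were higher for 15 of 83 and lower for 43, with a median of −0.53. In the nucleus against the cytosol of unstimulated cells, cytosolic ribosomal protein genes were higher for 6 and lower for 4 of 83 (8 and 13 with the culture as a block), and genes of oxidative phosphorylation higher for 16 and lower for 24 of 80. With bicuculline these counts were 0 higher and 55 lower, and 7 higher and 43 lower, beside 31.3% of all entries higher and 31.9% lower.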

How the data were processed

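Polyadenylated RNA of 27 libraries in 9 groups of 3 was analysed from the authors' table, whose deposited values are FPKM per gene entry. Per the submitters' processing notes FastQC, Picard, SAMtools and STAR 2.4.0 were used with the mm10 genome, and per the labels' protocols the library kit kept strand. Which program counted reads, and with which strand setting, is not given in the sources used here. Relative depth was worked out from the steps of low values. The deposited FPKM were tested as log2(FPKM + 0.5), for entries with at least 1 FPKM in at least 3 libraries, with limma 3.58.1 in R 4.3.3 and Benjamini-Hochberg adjustment over all entries tested (threshold 0.05), in 11 comparisons fitted without a block. Other scripts ran in Python 3.11.15 (pandas 2.3.3, numpy 2.4.6, matplotlib 3.10.9). The limma fit without a block was tested for some of the 11 comparisons on simulated data that held no differences between cultures.

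Same-numbered libraries share a culture code in the labels, and their deviations from the group means correlated in every pair (r 0.463 to 0.902 over 9 pairs for DRB and 0.256 to 0.692 over 45 pairs for triptolide), so the numbers pair the samples and a fit with the culture as a block was run beside each comparison within an experiment. The main fit leaves out this pairing, so its p-values rest on the spread between libraries within groups. With the block they rest on the spread left after differences between cultures are taken out. Both rest on 3 cultures per experiment. No 2 libraries held identical values. Genes were named by rule: every called gene where at most 10 passed in a direction, otherwise the 6 largest, those called against the median's direction, the 6 highest and 6 lowest, 14 genes chosen by role, and for related lists every called gene where at most 6 passed, otherwise the top 3. The genes and lists were chosen with earlier results of these data known. Gene features are from GENCODE M21 and promoter windows from RefSeq, which lacked 9 of the 77 genes. Alternatives were other pseudocounts (0.1 and 1), other filters, median-ratio scaling, quantile normalization, the block, the compared groups alone, and leaving out each library.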

Additional observations from a re-analysis of the deposited data

How the results depend on the processing

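Of 195 counts of these genes under the alternatives 178 stayed within 1.5 times the reported count. Many of these are counts of 0 that stayed 0, so this share says little about the counts above 0. Of 1089 values of named genes 996 kept direction and call, 88 lost the call and 5 turned. The depth limits Mrpl23 most, with an estimated 63 fragments at its lowest. The culture block gave 1 gene for bicuculline in whole cells under triptolide, 8 in the nucleus, 1 in the cytosol and 3 for the shift between nucleus and cytosol, in place of 0, 4, 0 and 0. The block with median-ratio scaling, chosen after seeing the data, gave 2, 14, 3 and 3, where 2.18%, 14.4%, 7.55% and 7.95% of all entries passed. In the other comparisons the pairing changed no count over all 77 genes by more than 1.5 times, but it moved some counts within the subunits and related lists by more, among them 58 in place of 9 lower cytosolic ribosomal protein genes in the nucleus and 29 in place of 0 for the shift. In the nucleus, no filter on low values gave 2 genes and the compared groups alone 0. Leaving out a library gave 0 to 2 genes in the nucleus and 0 to 1 for the shift. With quantile normalization, nucleus minus cytosol turned to −0.00087 for Mrpl33, −0.0057 for Mrpl1, −0.12 for Mrps25 and −0.13 for Mrpl17 in unstimulated cells, and to −0.077 for Mrps25 with bicuculline. The cause was not tested. No paired analysis was possible because the cultures differ for DRB against triptolide in unstimulated cells.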
